A study of Mus musculus with 28 samples.

Results

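The data described here are a comparison of purified mouse sensory neurons from 2 experiments, naïve neurons and neurons taken after nerve injury. All 28 libraries of the series were used, 22 naïve and 6 injured, and no library was left out. Naïve neurons came from AdvGFP mice (STOCK Tg(Avil-EGFP)QD84Gsat/Mmucd), whose EGFP is expressed from the promoter of advillin, a gene of peripheral sensory neurons. They were sorted by FACS as GFP-positive, propidium iodide-negative cells, with 11 male and 11 female libraries from mice aged 3 to 6 months. Injured neurons came from C57BL/6J mice aged 6 weeks to 7 months, 8 days after partial ligation of the sciatic nerve (SNL). They were purified from ipsilateral lumbar dorsal root ganglia (DRG) by MACS, in which magnetic beads hold back non-neuronal cells, with 3 male and 3 female libraries. Every library pooled the ganglia of 2 mice. The methods give 2 of the 11 naïve replicates as trigeminal and the rest as bilateral lumbar DRG, but the labels do not say which. The sample labels name satellite glial cells as the contaminant of the naïve libraries and erythrocytes as that of the SNL libraries, and the methods describe the bead-purified cells as small-diameter nociceptors. According to the methods, SNL females were staged for the estrus cycle and ligated in estrus, and no staging is listed for naïve females. Injury therefore coincides with sorting method, mouse strain, ganglia, estrus staging of females and deposited table. No uninjured bead-purified library or injured sorted library was analysed here. Every difference below is one between the 2 sets of libraries, and these factors cannot be told apart in it.

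Axotomised sensory neurons switch on a regeneration programme in which transcription factors such as ATF3, Jun and SOX11 act on cytoskeletal, secreted and membrane proteins, while the peptides galanin and neuropeptide Y appear in cells that normally make little of them. Satellite glia wrap each sensory neuron body tightly and are known by apolipoprotein E and the fatty acid-binding protein FABP7. Red cells are known by haemoglobin and by enzymes of haem synthesis. Sensory neurons fall into large myelinated neurons that carry touch and limb position, and small unmyelinated neurons that carry pain, itch, temperature and gentle touch.

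The libraries had 24800048 to 50649730 input reads, and 78.4 to 89.8% of reads mapped. RNA integrity (RIN) averaged 8.33 in 21 naïve libraries with a value and 7.83 in 6 SNL libraries (exact permutation test, two-sided, p = 0.398, adjusted p = 0.398). The share of reads mapped averaged 84.5% and 85.8% (exact permutation test, two-sided, p = 0.374, adjusted p = 0.398). Expression is given as FPKM, a fragment count scaled by transcript length and library depth, after the 28 libraries were brought to a common scale by their median ratio over 9929 genes above 0 in every library. The scale factors ran from 0.819 in male naïve library 11 to 1.15 in female SNL library 2. A gene was tested when it reached 1 FPKM in at least 3 naïve or 2 SNL libraries of one sex, which held for 13145 of 45882 genes. The test was limma on log2(FPKM + 1), with sex as a covariate. A gene is called higher or lower where the Benjamini-Hochberg adjusted p is under 0.05 and the difference is at least 1 on this log2 scale, on which low-FPKM genes appear to change less than they did.

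Several naïve libraries stood apart. In 6 of them (male 4 and 8, female 3, 5, 7 and 9) Sprr1a, a cornified envelope protein gene used as a mark of injured neurons, was at 27.96 to 545 FPKM, while it was at 0.101 to 5.40 FPKM in the other 16. In these 6 libraries Atf3 was at 28.8 to 157 FPKM against 1.75 to 12.3 in the others, which goes against their label as naïve. They were not alike in other injury genes, with Gal from 108 FPKM in female naïve library 7 to 6419 FPKM in male naïve library 4. Results that rest on these 6 libraries are given with and without them, and since Sprr1a chose these libraries, its own difference without them has no meaning. For Atf3 and other genes that rise with Sprr1a, a larger difference without them follows in part from that choice and is no separate support. In 4 naïve libraries (male 2 and 10, female 2 and 11) the summed FPKM of the Hox genes of the trunk, which mark spinal but not cranial ganglia, was 0.321 to 0.599, against 76.6 to 186 in the other 18 and 89.6 to 135 in the 6 SNL libraries. Male naïve library 11 had the lowest Avil, the gene whose promoter marks the sorted cells, at 210 FPKM (naïve median 852). Female naïve library 4 was high in genes of other cells, with a summed FPKM of 341 for macrophage, 162 for neutrophil and 333 for fibroblast genes, against 55.8, 9.29 and 67.2 in the next highest naïve library of each. Its Cd74, an antigen-presenting gene, was at 292 FPKM against a naïve median of 0.394.

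Between the 2 sets of libraries 325 genes were higher and 722 lower in SNL neurons, 2.47% and 5.49% of the genes tested. Counts of list members called below are to be read beside these shares, and 1 call in a short list says little about the list. The 6 SNL values all lay above the 22 naïve values for 114 genes (0.867%) and all below for 251 genes (1.91%). Without the 6 naïve libraries high in Sprr1a, 358 genes (2.72%) were higher and 730 (5.55%) lower. Ranking genes within each library instead, with a limit of 10 percentile points, gave 797 higher and 830 lower genes, so that 49.0% of calls were higher in place of 31.0%. The libraries' mean normalized counts that the authors deposited, a second quantity that does not rest on FPKM, had the same sign after centring for 296 of 314 higher and 657 of 692 lower genes that have both means. These counts come from the same libraries, so the same sign for genes already called is no separate support. The share among genes not called was not computed. The lists described below held 22 injury, 11 contaminant and 7 neuronal subtype genes among the higher genes, and 3, 20 and 6 among the lower genes. A Hox gene was also higher, and 1 pan-neuronal and 3 dissociation genes lower, which left 284 higher and 690 lower genes in no list. Calca, in an injury list and in the peptidergic list, is counted in both classes of lower genes. The 22 injury genes include Scn11a and Oprm1, from the list of genes known to fall after injury.

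**Figure D1:**
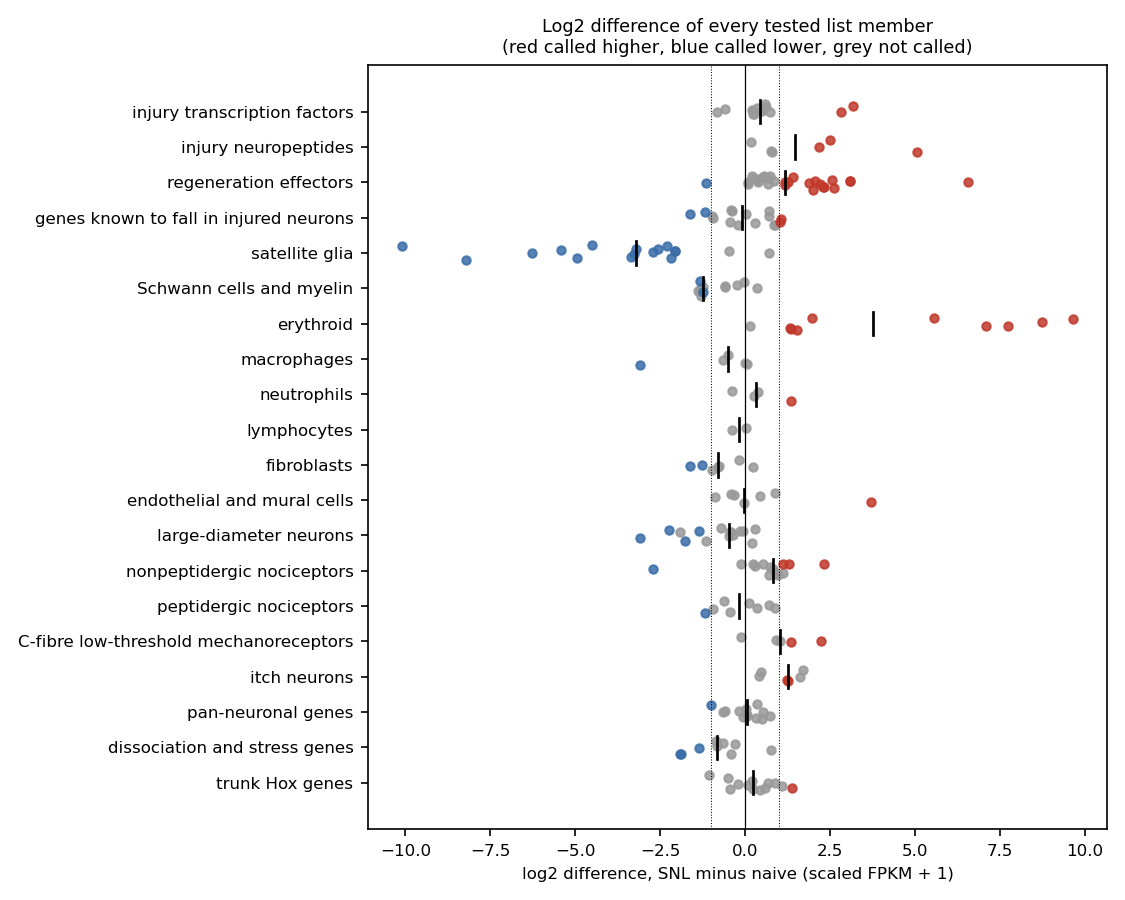
Log2 difference (SNL minus naïve, FPKM + 1) of every tested member of each gene list, with 1 point per gene and a black bar at the list's median; dotted lines mark 1 and -1. Satellite glial genes lie furthest to the left (median -3.22) and erythroid genes furthest to the right (median 3.76), and regeneration effectors have a median of 1.17.

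Among 14 transcription factors of the injury response, all of them tested, 2 were higher in SNL neurons, none was lower, and 12 did not pass. The median log2 difference over the list was 0.43, beside -0.02 over all tested genes. Atf3, a stress-induced factor that sensory neurons switch on when their axon is cut (mm10 chr1:191170296-191218039), was at 99.0, 57.7 and 253 FPKM in male SNL libraries 1, 2 and 3 and at 95.4, 115 and 248 FPKM in female SNL libraries 1, 2 and 3. Naïve libraries ranged from 1.75 to 157 FPKM with a median of 7.75, and 4 of them exceeded the lowest SNL library, all 4 among the 6 high in Sprr1a. The log2 difference of Atf3 was 3.19 ± 0.66 (SE, limma adjusted p = 0.00078), and 4.10 ± 0.32 without those 6 libraries.

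Sox11, a developmental factor that returns after axotomy (chr12:27334264-27342574), was at 13.3, 7.65 and 28.7 FPKM in male and 12.4, 17.7 and 33.9 FPKM in female SNL libraries. No naïve library exceeded 5.13 FPKM, so the groups did not overlap, including the naïve libraries high in Sprr1a (0.609 to 5.13 FPKM). Its log2 difference was 2.82 ± 0.28 (limma adjusted p = 4.5e-09). Jun, which dimerises with ATF3, overlapped widely, with 3.12 to 37.9 FPKM in SNL and 2.89 to 42.3 in naïve libraries (log2 difference 0.24 ± 0.42, limma adjusted p = 0.72). Stat3 (0.58 ± 0.17) and Smad1 (0.73 ± 0.18), which carry cytokine and BMP signals to the nucleus, had limma adjusted p of 0.015 and 0.0040 but differences under 1. The remaining 9 factors (Klf6, Klf7, Cebpd, Nfil3, Myc, Arid5a, Ddit3, Xbp1 and Egr1) had log2 differences from -0.82 to 0.60 with limma adjusted p of 0.054 or more.

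Of 9 injury neuropeptide and growth factor genes, 6 were tested and 3 were higher. Npy, which encodes neuropeptide Y (chr6:49822710-49829507), was at 36.9, 29.4 and 69.4 FPKM in male and 20.7, 39.7 and 148 FPKM in female SNL libraries. It was listed at 0 in 15 of 22 naïve libraries and reached 14.4 FPKM in female naïve library 9, so the groups did not overlap (log2 difference 5.07 ± 0.39, limma adjusted p = 1.5e-11). Gal, which encodes galanin (chr19:3409919-3414472), was at 2349, 345 and 1171 FPKM in male and 1081, 942 and 971 FPKM in female SNL libraries. Naïve libraries ran from 43.2 to 6419 FPKM (median 157), and the highest of all 28 values was a naïve one. The difference in Gal was 2.17 ± 0.76 (limma adjusted p = 0.043), and the call was lost when any one of male SNL 1 or 3, female SNL 1, 2 or 3 or male naïve library 11 was left out. Over the single-library omissions run, its log2 difference was 1.94 to 2.52 with adjusted p of 0.036 to 0.11. Without the 6 naïve libraries high in Sprr1a it was 3.03 ± 0.42, the other naïve libraries then reaching 518 FPKM. Without the 4 naïve libraries low in Hox genes it was 1.81 ± 0.77 and not called (limma adjusted p = 0.10).

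Nts, which encodes neurotensin, behaved like Gal, with 26.7 to 155 FPKM in SNL libraries and 0.0849 to 498 FPKM in naïve libraries (log2 difference 2.51 ± 0.86, limma adjusted p = 0.036). Its call was lost without any one of 5 SNL libraries (male 1, 2 or 3, female 2 or 3), with a log2 difference of 2.11 to 2.90 and adjusted p of 0.029 to 0.12 over the omissions. Without the 4 naïve libraries low in Hox genes Nts was not called either (2.395, adjusted p of 0.069), which left Npy as the 1 neuropeptide gene called. Bdnf, a neurotrophin released in the dorsal horn (0.80 ± 0.38), Vgf, a granin-like precursor (0.76 ± 0.31), and Adcyap1, which encodes PACAP (0.17 ± 0.35), did not pass, though Bdnf and Vgf were called higher without the naïve libraries high in Sprr1a, and Vgf also without male SNL library 1 (1.03). Vip, listed at 0 in all 6 SNL libraries and above 0 in 3 naïve ones, Cck and Crh did not reach the level for testing.

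**Figure D2:**
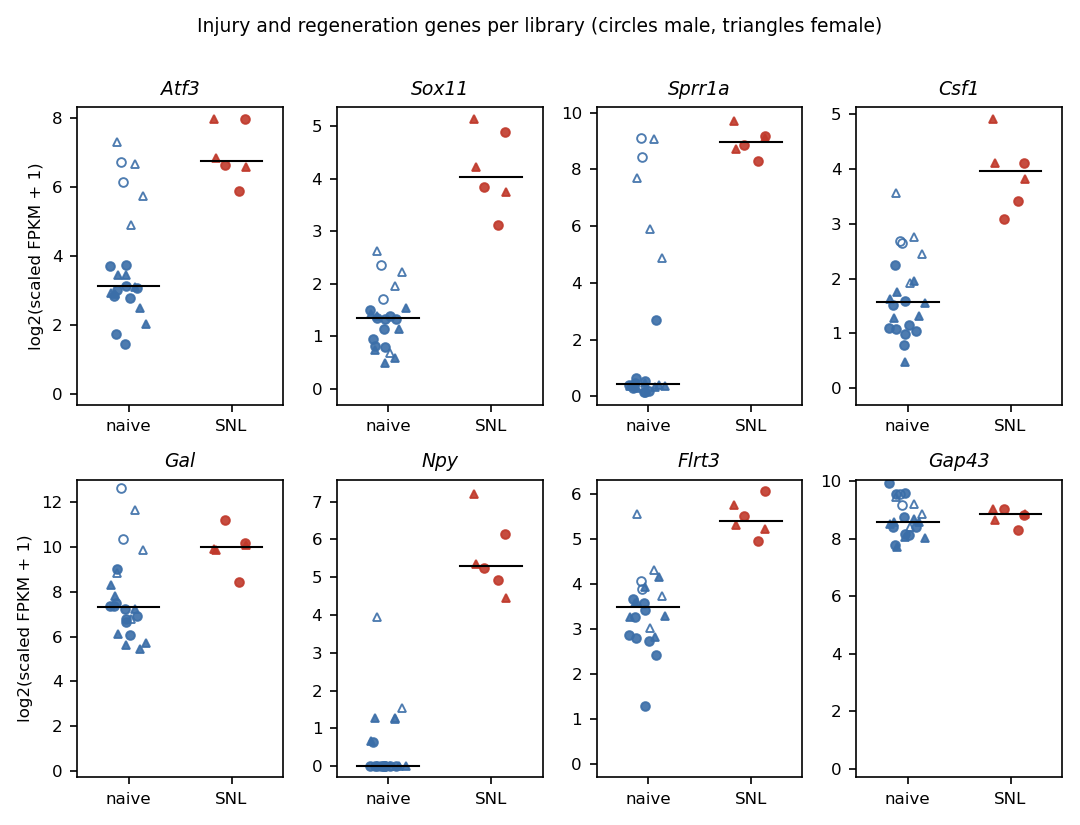
Expression of 8 injury and regeneration genes as log2(scaled FPKM + 1), with 1 point per library, black bars at the median, and open symbols for the 6 naïve libraries high in Sprr1a. Sox11 and Npy separate all 6 SNL libraries from all 22 naïve ones, the SNL ranges of Atf3, Sprr1a, Csf1 and Flrt3 are reached by open symbols alone, and those of Gal and Gap43 by filled symbols too.

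Among 32 effector genes of axon growth and of signalling by injured neurons, 29 were tested, 15 were higher, 1 was lower and 13 did not pass, with a median log2 difference of 1.17. None separated the 2 sets of libraries completely. Sprr1a (chr3:92483952-92485895) was at 462, 314 and 582 FPKM in male and 548, 424 and 835 FPKM in female SNL libraries, against a naïve median of 0.350 FPKM. The 3 naïve libraries above the lowest SNL value were among the 6 already described (log2 difference 6.56 ± 1.29, limma adjusted p = 0.00043).

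Csf1, the macrophage colony-stimulating factor that injured neurons send to microglia, was at 7.45, 9.63 and 16.3 FPKM in male and 13.1, 16.3 and 28.9 FPKM in female SNL libraries, and at 0.393 to 10.8 FPKM in naïve libraries (2.20 ± 0.32, limma adjusted p = 5.3e-06). A single naïve library exceeded the lowest SNL value of Csf1. Flrt3, a leucine-rich adhesion protein, had 30.1 to 66.8 FPKM in SNL libraries against 1.44 to 46.6 in naïve libraries (2.05 ± 0.32), again with 1 naïve library inside the SNL range. Sdc1, a heparan sulphate proteoglycan, and Plaur, the urokinase receptor, each had 1 naïve library above their lowest SNL value, with log2 differences of 2.30 ± 0.41 and 2.54 ± 0.43. Cckbr, the cholecystokinin B receptor (3.08 ± 0.47), Gpr151, an orphan receptor of axons (2.63 ± 0.52), and Ecel1, a neuronal endopeptidase (2.33 ± 0.44), were at medians of 0.116, 2.20 and 0.0202 FPKM in naïve and 13.7, 27.1 and 6.61 FPKM in SNL libraries.

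The other higher effectors were Anxa1 (3.08 ± 0.91), which encodes an anti-inflammatory annexin, the tubulin genes Tubb6 (1.99 ± 0.30) and Tubb2b (1.17 ± 0.25), Sez6l (1.89 ± 0.25), the stathmin gene Stmn4 (1.40 ± 0.46), the DNA damage gene Gadd45a (1.26 ± 0.28) and the laminin receptor subunit Itga7 (1.18 ± 0.24). Anxa1 lost its call without male SNL library 3 (adjusted p of 0.050), and Stmn4 lost it without male SNL 3 or any one of the 3 female SNL libraries (log2 difference 1.26 to 1.53 and adjusted p of 0.030 to 0.078 over the single omissions). Plat, the tissue plasminogen activator, was lower (-1.16 ± 0.24), and fell just short of the limit of 1 without female SNL library 3 (-0.99). Gap43, a growth cone protein abundant in sensory neurons, was at 313 to 527 FPKM in SNL and 209.5 to 979 in naïve libraries, and its log2 difference of 0.08 ± 0.25 had a limma adjusted p of 0.86. Neither Basp1 (0.20 ± 0.26), a protein of the same growth cone membranes, nor Hspb1 (0.55 ± 0.44), a small heat-shock protein, nor Socs3 (0.37 ± 0.31), a brake on cytokine signals, passed. Hspb1 split the SNL libraries, at 165, 184 and 180 FPKM in male 2, female 1 and female 3 and at 18.8, 27.0 and 41.1 FPKM in male 1, male 3 and female 2.

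The promoter of Sprr1a is shown because it carries the letters of the AP-1 element, the site of Jun dimers, in the window searched. The window runs from 250 bases before to 50 bases after the annotated RefSeq start (GRCm38.p6 chr3:92485832-92486131, minus strand), and capitals mark TGAGTCA.
Sprr1a: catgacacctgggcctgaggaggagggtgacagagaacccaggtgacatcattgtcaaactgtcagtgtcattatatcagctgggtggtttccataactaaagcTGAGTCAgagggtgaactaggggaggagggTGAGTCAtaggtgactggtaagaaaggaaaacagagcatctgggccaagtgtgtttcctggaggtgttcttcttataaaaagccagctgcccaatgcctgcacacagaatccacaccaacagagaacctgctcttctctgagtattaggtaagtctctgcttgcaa
The 2 matches begin 146 and 116 bases before the start. Letters TGANTCA and TGACGTCA, each its own reverse complement, were searched on both strands. TGANTCA was found in the windows of 6 of 47 tested genes of the 4 injury lists that have one (Bdnf, Ddit3, Il6, Nts, Plaur and Sprr1a), and in 6.05% of the windows of 9386 tested genes. TGACGTCA was in none of those 47 and in 3.70% of all. A match of letters shows no binding, and Atf3, Gal, Npy and Sox11 held neither in this window.

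Genes known to fall in injured sensory neurons did not move together. Of 16 such genes, all tested, 2 were lower, 2 higher and 12 not called, with a median log2 difference of -0.08. Htr3a, the ionotropic serotonin receptor, was at 17.6, 29.7 and 25.2 FPKM in male and 44.4, 23.4 and 25.9 FPKM in female SNL libraries, and at 28.7 to 246 FPKM in naïve libraries (-1.63 ± 0.31, limma adjusted p = 0.00027). Calca, which encodes the peptide CGRP, was at 2906 to 4599 FPKM in SNL and 2299 to 25338 FPKM in naïve libraries (-1.19 ± 0.36, limma adjusted p = 0.018). Its call was lost without male SNL library 2 (adjusted p of 0.062) and without the 6 naïve libraries high in Sprr1a, whose own Calca ran from 7787 to 16749 FPKM. It was also lost without the 6 naïve libraries with a RIN under 8 or none (-0.996, adjusted p of 0.052), among them male naïve library 3, which had the highest Calca and a RIN of 5.2. Tac1, which encodes substance P, was at 561 to 860 FPKM in SNL and 733 to 3686 FPKM in naïve libraries (-0.94 ± 0.28, limma adjusted p = 0.018), short of the limit of 1, and was called lower without female SNL library 2 (-1.03).

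The sodium channel gene Scn11a (Nav1.9) was higher, at 153, 143 and 131 FPKM in male and 94.3, 118 and 89.7 FPKM in female SNL libraries against 17.4 to 96.3 in naïve libraries (1.06 ± 0.23). Its log2 difference fell to just under 1 without male SNL 1, male SNL 2 or male naïve 11 (0.97 to 1.15 over the omissions). The other nociceptor sodium channel gene, Scn10a (Nav1.8), was at 114 to 180 FPKM in SNL and at most 112 FPKM in naïve libraries, so the groups did not overlap, with a difference of 0.84 ± 0.19 (limma adjusted p = 0.0018) that stayed under the limit. Oprm1, the mu opioid receptor, was higher (1.04 ± 0.27, limma adjusted p = 0.0058), a call lost without male SNL 1, male SNL 3 or female SNL 1 (0.91 to 1.18). The potassium channel genes Kcna1 (-0.99 ± 0.36), Kcna2 (-0.42 ± 0.22) and Kcns1 (-0.39 ± 0.30) were not called, but Kcna1 was called lower without male SNL library 2 (-1.13) or without the naïve libraries high in Sprr1a (-1.28).

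Satellite glial genes were the list with the most genes called lower. Of 17 such genes, all tested, 15 were lower in SNL libraries, and for 13 the 6 SNL values all lay below the 22 naïve values, with a median log2 difference of -3.22. Over all tested genes 5.49% were lower, and for 1.91% the SNL values all lay below. In such bulk samples fewer cells of a type and less RNA per cell cannot be told apart. Apoe, the lipoprotein that glia secrete (chr7:19696109-19699166), was at 505 to 5561 FPKM (median 2976) in naïve libraries and at 0.377, 0.746 and 2.88 FPKM in male and 0.344, 1.22 and 3.52 FPKM in female SNL libraries (-10.11 ± 0.36, limma adjusted p = 6.1e-20). Fabp7, a fatty acid-binding protein of glia (chr10:57784881-57788450), was at 266 to 2056 FPKM in naïve libraries and at 0 to 7.08 FPKM in SNL libraries (-8.23 ± 0.30). Sox10, the factor that sets glial identity, was listed at 0 in 4 of 6 SNL libraries and at 0.550 to 18.1 FPKM in naïve libraries. Kcnj10, the inward rectifier channel of satellite glia, was at 2.16 to 11.8 FPKM in naïve and at most 0.0161 FPKM in SNL libraries. Apoe, Fabp7, Sox10 and Kcnj10 were thus far lower in SNL than in naïve libraries, and the part of sorting method in this was not tested. The naïve libraries varied among themselves, with a summed FPKM over the list from 2024 to 8659 (202 to 285 in SNL libraries).

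S100b, a calcium-binding protein that large neurons also make, was lower but overlapped (-2.18 ± 0.40), and Bcan, which encodes brevican, likewise (-2.56 ± 0.39). Aldoc (-0.48 ± 0.29), a glycolytic enzyme, and Glul (0.70 ± 0.18), glutamine synthetase, were the 2 members not called. Glul was at 34.3 to 65.1 FPKM in SNL and 20.7 to 63.5 FPKM in naïve libraries.

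To see which other low genes track glia, each gene was ranked over the 22 naïve libraries beside the mean log2 level of the satellite glial list, members left out. A Spearman rho of at least 0.6 was found for 82 of 707 other genes called lower (11.6%), for 1 of 325 called higher (0.308%) and for 105 of 12096 not called (0.868%). The libraries share depth and sorting, no p is attached, and genes are not independent replicates. The leading genes were Mmd2 (0.918), Lgi4 (0.915), Cmtm5 (0.897), Serpine2 (0.864) and Gpr37l1 (0.863), with log2 differences between experiments of -5.69, -2.33, -5.10, -4.65 and -4.86. Lgi4 is a secreted glial protein required for myelination, and Gpr37l1 is a receptor of astrocytes and satellite glia. The same count beside the large-diameter neuron list was 51 of 718 genes called lower (7.10%) and 421 of 12087 not called (3.48%).

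**Figure D3:**
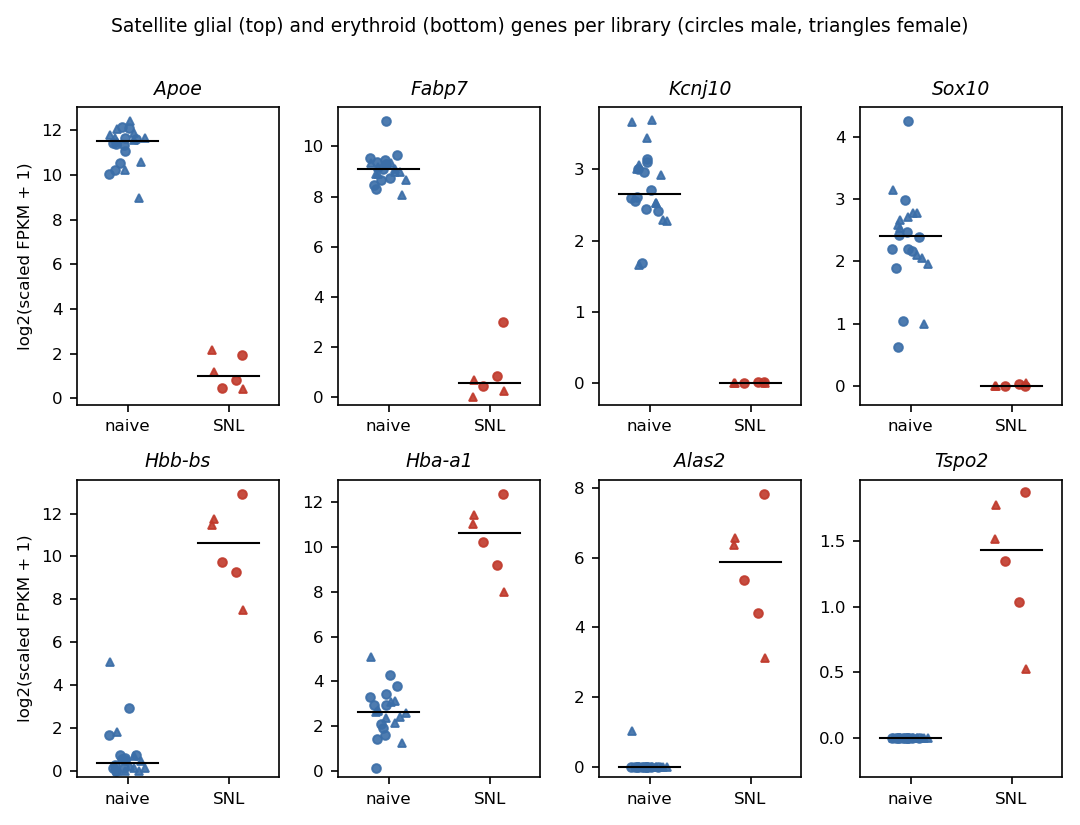
Expression of 4 satellite glial genes (top) and 4 erythroid genes (bottom) as log2(scaled FPKM + 1), with 1 point per library and black bars at the median. In each of the 8 panels the 22 naïve and 6 SNL libraries occupy separate ranges, in opposite directions for the 2 cell types.

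Schwann cell and myelin genes were less clear. Of 12 genes 11 were tested, 2 were lower and none higher, with a median of -1.23, beside 5.49% lower over all tested genes. Egr2, the factor that starts myelination (-1.32 ± 0.35), and Erbb3, the neuregulin receptor of Schwann cells (-1.25 ± 0.22), were lower, and Egr2 was listed at 0 in 5 of 6 SNL libraries. Mbp, a structural myelin gene, was at 42.0 to 1474 FPKM in naïve and 35.5 to 232 FPKM in SNL libraries (-1.23 ± 0.47, limma adjusted p = 0.064). Without male SNL library 3, which had its highest SNL value, Mbp was called lower (-1.65, adjusted p of 0.015). Pmp22, which neurons also express, was at 724 to 2027 FPKM in naïve and 838 to 2929 FPKM in SNL libraries (0.34 ± 0.22).

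Erythroid genes had the highest median difference of the lists, at 3.76. Of 13 genes 10 were tested, 9 were higher and none lower, and for 8 the 2 sets did not overlap. Over all tested genes 2.47% were higher, and for 0.867% the SNL values all lay above. Hbb-bs, a beta-globin gene (chr7:103826534-103828096), was at 867, 622 and 7776 FPKM in male and 178, 3491 and 2838 FPKM in female SNL libraries, and at 0 to 32.9 FPKM in naïve libraries (9.67 ± 0.60, limma adjusted p = 1.2e-13). The alpha-globin gene Hba-a1 had 251 to 5376 FPKM in SNL against 0.0765 to 33.3 FPKM in naïve libraries (7.75 ± 0.52). Alas2, the first enzyme of haem synthesis in red cell precursors, was at 40.0, 20.2 and 228.05 FPKM in male and 7.68, 94.4 and 81.7 FPKM in female SNL libraries, and above 0 in 1 naïve library (1.03 FPKM). Hbb-bs, Hba-a1 and Alas2 were lowest in female SNL library 1 and highest in male SNL library 3, and the single naïve library with Alas2, female 4, also had the highest naïve Hbb-bs. The part of red cell RNA in the other results was not tested. Summed FPKM over the list was 545 to 17403 in SNL and 14.6 to 94.5 in naïve libraries. Tspo2, a translocator protein of erythroid cells, was listed at 0 in all 22 naïve libraries and was at 0.439 to 2.65 FPKM in SNL libraries. Fech, the last enzyme of haem synthesis, which other cells share, was not called (0.15 ± 0.16).

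Markers of other cells were called in small numbers. Of 17 macrophage genes 5 were tested, and Aif1 was lower, at 5.42 to 46.0 FPKM in naïve and 0 to 1.32 FPKM in SNL libraries (-3.11 ± 0.27). The other macrophage genes tested (Cd14, C1qb, Lyz2 and Cd74) were not called, and 12 macrophage genes did not reach the level for testing. Summed macrophage FPKM was 6.60 to 341 in naïve and 2.71 to 11.8 in SNL libraries, the naïve maximum being that of female library 4 and the next 55.8. Of 7 neutrophil genes 4 were tested and Ly6g was higher (1.36 ± 0.29), at 0 to 4.24 FPKM in SNL and 0 to 4.36 FPKM in naïve libraries, while S100a8, the most abundant neutrophil protein gene, was not called (0.25 ± 0.50) and was highest in female naïve library 4, at 42.0 FPKM. The neutrophil median was 0.32 in FPKM and 3.99 in the centred ratio of the authors' mean counts. Lymphocyte genes gave 2 tested and none called of 11, the tested members being Lck (-0.39 ± 0.32) and Cd79a (0.04 ± 0.30).

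Fibroblast genes were lower for the collagen gene Col1a2 (-1.26 ± 0.30) and the proteoglycan gene Lum (-1.63 ± 0.39), 2 of 7 tested, while Dcn, another proteoglycan, was at 0.147 to 262 FPKM in naïve and 4.64 to 25.4 FPKM in SNL libraries (0.24 ± 0.52), again with the maximum in female naïve library 4 and the next at 59.5 FPKM. The fibroblast median was -0.80 in FPKM and -3.45 in the centred ratio of the authors' means. Of 7 tested endothelial and mural genes Rgs5, a G-protein regulator of pericytes, was higher, with 14.8 to 39.1 FPKM in SNL libraries against 0 to 22.01 FPKM (median 0.295) in naïve libraries (3.70 ± 0.53). Male naïve library 7 and female naïve library 4 lay inside the SNL range. The endothelial genes Egfl7 (-0.34 ± 0.27) and Esam (-0.42 ± 0.39) were not called.

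Large-diameter neuron genes were low in part. Of 15 genes, all tested, 4 were lower and none higher, with a median of -0.47 in FPKM and of -1.51 in the centred ratio of the authors' mean counts. Nefh, the heavy neurofilament of myelinated neurons, was at 30.2, 57.6 and 38.9 FPKM in male and 43.7, 43.3 and 31.0 FPKM in female SNL libraries, and at 27.2 to 357 FPKM (median 121) in naïve libraries (-1.36 ± 0.36, limma adjusted p = 0.0076). Pvalb, the calcium buffer of proprioceptors, was at 0 to 6.29 FPKM in SNL and 0.214 to 535 FPKM in naïve libraries, the highest value being that of male naïve library 11 (-3.09 ± 0.84, limma adjusted p = 0.0091). Leaving that library out kept the call, with a log2 difference of -2.83. Ntrk2, the BDNF receptor of touch neurons, did not overlap, at 0.499 to 5.17 FPKM in SNL and 5.85 to 20.8 FPKM in naïve libraries (-2.24 ± 0.24). Ldhb, a lactate dehydrogenase subunit, was also lower (-1.76 ± 0.37). Nefl (-0.05 ± 0.22) and Nefm (-0.45 ± 0.28), the other neurofilament subunits, were not called, although the centred log2 ratio of the authors' mean counts was -1.51 and -2.12 for them. Ntrk3, the neurotrophin-3 receptor of proprioceptors, was not called either (0.28).

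In each class of small-diameter neuron most genes were not called, and the medians differed between classes. Among 15 nonpeptidergic nociceptor genes, 3 were higher, 1 lower and 11 not called, with a median of 0.83. Mrgprd, the receptor that defines the main nonpeptidergic class, was at 146 to 287 FPKM in SNL and 27.2 to 332 FPKM in naïve libraries (0.28 ± 0.33). Higher members were Mrgprb4, a receptor of stroking-sensitive neurons (2.31 ± 0.47), Lpar3, a lysophosphatidic acid receptor (1.31 ± 0.33), and Prkcq, a protein kinase C (1.12 ± 0.27). Mrgprb5 went the other way with no overlap, at 10.3, 3.97 and 12.5 FPKM in male and 4.30, 8.93 and 7.41 FPKM in female SNL libraries and 21.7 to 121 FPKM in naïve libraries (-2.70 ± 0.26, limma adjusted p = 3.4e-09). Mrgprb4 and Mrgprb5 belong to a family of near-identical copies, so their reads may be split between members.

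Of 8 tested peptidergic genes Calca, already described, was the 1 called, and it was lower, with a list median of -0.17. Without the naïve libraries high in Sprr1a, 1 peptidergic gene was higher and 0 lower, with a list median of 0.02. Summed FPKM over the list was 4670 to 6739 in SNL and 4059 to 30171 in naïve libraries. Trpv1, the capsaicin receptor, was at 96.4 to 217.7 FPKM in SNL and 17.6 to 271 FPKM in naïve libraries (0.69 ± 0.39). Among 5 genes of the C-fibre low-threshold mechanoreceptors, which sense gentle touch, Th, tyrosine hydroxylase, was at 651, 432 and 331 FPKM in male and 523, 230.98 and 264 FPKM in female SNL libraries against 5.63 to 312 FPKM in naïve libraries (2.24 ± 0.62, limma adjusted p = 0.0094). Slc17a8, which encodes the vesicular glutamate transporter of these neurons, did not overlap (1.98 to 3.70 against 0 to 1.53 FPKM, 1.37 ± 0.18). Of 6 itch neuron genes, Il31ra (1.24 ± 0.41) and Htr1f (1.27 ± 0.32) were higher, and the itch peptides Nppb (1.63 ± 0.92) and Sst (1.70 ± 1.03) were not called. Il31ra, the interleukin-31 receptor, lost its call without male SNL 1, male SNL 3 or female SNL 2 (1.13 to 1.35 and adjusted p of 0.033 to 0.079 over the omissions) and without the naïve libraries high in Sprr1a.

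**Figure D4:**
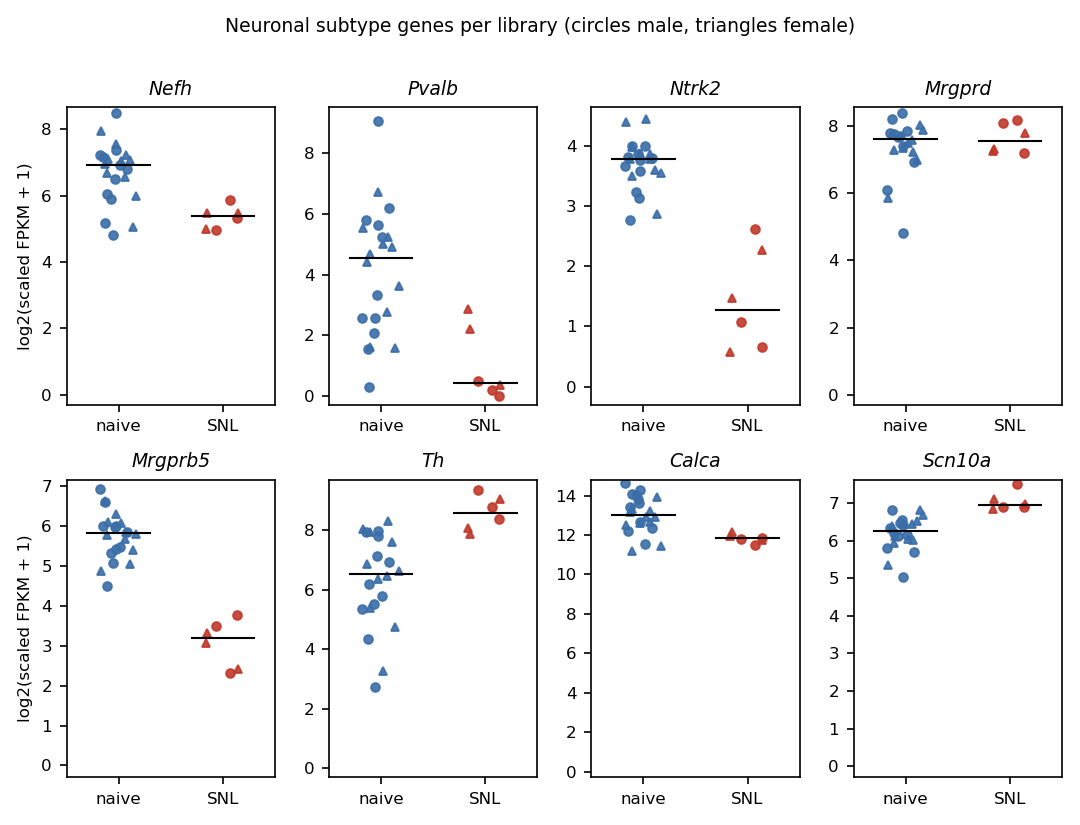
Expression of 8 neuronal subtype genes as log2(scaled FPKM + 1), with 1 point per library and black bars at the median. Ntrk2 and Mrgprb5 lie wholly lower and Scn10a wholly higher in SNL libraries, and Mrgprd overlaps throughout.

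Of 13 pan-neuronal genes tested, Thy1, a surface glycoprotein, was lower (-1.01 ± 0.30), a call lost without any one of male SNL 1 or 2, female SNL 1, male naïve 11 or female naïve 4 and under 13 of 25 alternatives in all, and the list's median was 0.04. The pan-neuronal genes Uchl1, a ubiquitin hydrolase, and Stmn2, a tubulin regulator, differed by 0.07 ± 0.15 and 0.04 ± 0.16, and Avil by 0.54 ± 0.22. Snap25, a synaptic vesicle fusion protein gene of the same list, was at 600 to 842 FPKM in SNL and 711 to 1358 FPKM in naïve libraries (-0.65 ± 0.13, limma adjusted p = 0.00055), a difference under the limit of 1. Genes that respond to tissue dissociation were lower in part (3 of 9 tested, median -0.82), with the immediate early genes Fos at 3.92 to 14.7 FPKM in SNL and 7.21 to 115 FPKM in naïve libraries (-1.93 ± 0.41), Nr4a1 (-1.88 ± 0.36) and Ier2 (-1.37 ± 0.37). Among 13 tested trunk Hox genes Hoxd10 was higher (1.39 ± 0.50), a call lost without any one SNL library or male naïve 11 and under 16 of 25 alternatives in all, among them the fit without the 4 naïve libraries low in Hox genes (1.11).

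The 10 genes with the largest positive difference among those that did not overlap and reached 5 FPKM on average were 5 erythroid genes (Hbb-bs, Hbb-bt, Hba-a1, Hba-a2 and Alas2), mt-Nd3, Gm26917, Npy, Ighg2c and Serpina1e. Of the members of the injury lists Npy alone is among them. Sprr1a had a larger log2 difference than Npy, but was not eligible because naïve libraries high in it overlapped the SNL range. Ighg2c, the immunoglobulin heavy chain gene found in C57BL/6 mice, was at 51.5, 34.1 and 32.1 FPKM in male and 32.0, 17.9 and 27.6 FPKM in female SNL libraries and at most 0.542 FPKM in naïve libraries (4.90 ± 0.14). Ighm, the chain of immunoglobulin M, had 5.68 to 14.4 FPKM in SNL and at most 2.92 FPKM in naïve libraries (2.80 ± 0.29), while the B cell marker Cd79a was not called. Serpina1e, a liver antitrypsin gene, was at 12.1 to 25.6 FPKM in SNL and at most 0.135 FPKM in naïve libraries (4.15 ± 0.12).

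mt-Nd3, a subunit gene of mitochondrial complex I, was at 17.6 to 665 FPKM in SNL and at most 6.68 FPKM in naïve libraries (6.12 ± 0.49). On the same mitochondrial genome mt-Co1, a cytochrome oxidase subunit gene, was lower, at 809 to 3068 FPKM in naïve and 99.5 to 1496 FPKM in SNL libraries (-1.58 ± 0.38). Gm26917, which lies beside the ribosomal RNA gene Rn18s-rs5 on chromosome 17, was at 62.4 to 8246 FPKM in SNL and 4.85 to 43.0 FPKM in naïve libraries (5.84 ± 0.54). Rn18s-rs5 itself was listed at 0 in female SNL library 3, which had the highest Gm26917, and at 4158 to 11668 FPKM in the other SNL libraries.

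Among the 10 genes with the most negative difference by the same rule were Apoe, Fabp7, Mmd2, Acsbg1, Eno1b and the predicted genes Gm13394, Gm26825, Gm5514 and Gm15772. Acsbg1, an acyl-CoA synthetase, was at 18.5 to 106 FPKM in naïve and at most 0.0329 FPKM in SNL libraries (-5.61 ± 0.27). The deposited mean counts differed from FPKM for some of these genes. Eno1b, an enolase copy on chromosome 18, had a difference of -6.72 in FPKM but a centred log2 ratio of -2.49 in the authors' mean counts, and Gm15772 had -5.83 and -0.65. Gm26825 was listed at 0 in all 6 SNL libraries and at 80.9 to 146 FPKM in naïve libraries.

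A further set of genes was chosen after its values were seen, because 1 of the 2 experiments lacked them. Over all 45882 genes, 62 averaged at least 5 FPKM in naïve libraries and were listed at 0 in all 6 SNL libraries, and 18 the reverse. A listed 0 can be a failed estimate, and 15 of the 62 and 4 of the 18 had a mean normalized count of at least 100 in the authors' table of the experiment where they were at 0. Rarres2, which encodes the chemoattractant chemerin, Sostdc1, a secreted BMP antagonist, and Gm26825 were among the genes at 0 in all 6 SNL libraries and at 5 FPKM or more in every naïve library. Rarres2 was at 11.1 to 187 FPKM (median 34.2) and Sostdc1 at 10.6 to 99.4 FPKM (median 31.2) in naïve libraries.

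Of these genes chosen after their values were seen, 2 are class I major histocompatibility genes, a family that differs between mouse strains and was not counted as a whole. H2-Q4 was at 4.57 to 35.8 FPKM in naïve and at most 0.128 FPKM in SNL libraries (-4.53 ± 0.27), and H2-T24 was at 4.49 to 9.49 FPKM in SNL and at most 0.479 FPKM in naïve libraries (2.81 ± 0.13). Rpl29, a ribosomal protein gene, was at 349, 263 and 346 FPKM in male and 322, 319 and 292 FPKM in female SNL libraries and at 13.6 to 75.3 FPKM in naïve libraries (3.47 ± 0.18). Pttg1, the securin of chromosome segregation, was at 76.9 to 121 FPKM in SNL and 0.707 to 46.9 FPKM in naïve libraries (3.69 ± 0.54). Among neuronal genes Gnb1, a G-protein beta subunit, was at 1088 to 1664 FPKM in SNL and 152 to 475 FPKM in naïve libraries (2.46 ± 0.16), and Prune2 at 192 to 287 and 20.1 to 74.8 FPKM (2.50 ± 0.19). Strain, sorting, injury and table cannot be told apart in these genes.

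**Figure D5:**
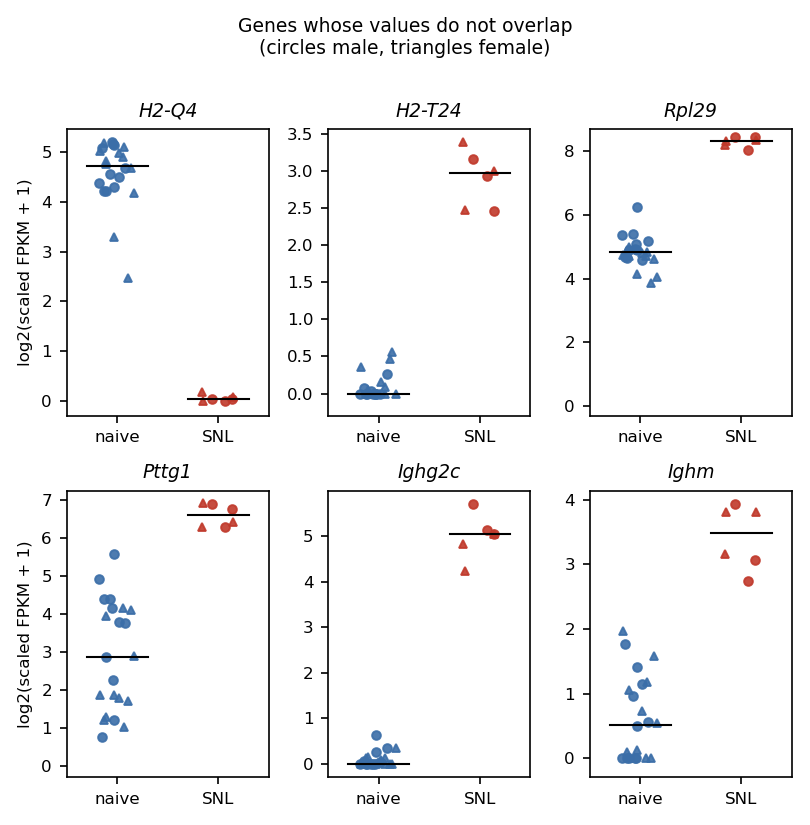
Expression of 6 genes as log2(scaled FPKM + 1), with 1 point per library and black bars at the median. All 6 SNL libraries lie below the 22 naïve ones for H2-Q4 and above them for H2-T24, Rpl29, Pttg1, Ighg2c and Ighm.

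The difference between the experiments was compared between the sexes as an interaction of sex and experiment in limma. No gene passed at an adjusted p under 0.05 among 13145, and 462 had an unadjusted p under 0.05. This count depended on single libraries, with 6 genes without male SNL library 2, 5 without female SNL library 1 and 1, Ctse, without female SNL library 2. The 5 were Acot8, Cdc42se1, Insl5, 1700030C10Rik and RP23-477N9.1, and 1700030C10Rik was also among the 6. With 3 SNL libraries per sex, a difference too small for this test is not shown to be absent. Estrus staging is listed for the SNL females alone, and its part in this comparison was not tested.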

How the data were processed

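RNA-seq libraries of 22 naïve and 6 SNL samples were grouped by the sample labels. The authors made libraries with the SMARTer Ultra Low kit, which keeps no strand, aligned reads to mm10 with STAR (1 match per read), processed them with SAMtools, and deposited FPKM estimated by Cufflinks. The authors also deposited mean normalized counts per experiment, an other kind of value, made with htseq and DESeq2. No tool version or annotation release is given in the sources used here. The columns of the authors' male and female comparison were not used.

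The 2 FPKM tables were joined on gene ID (rows of 51 repeated IDs were summed) and scaled jointly by the median of ratios. limma 3.58.1 (R 4.3.3) was run with an intensity trend on log2(FPKM + 1), after the method was tested on simulated data. The tables had been made separately, so no test within 1 table can give this comparison. Overlapping genes and near-identical copies are uncertain. The centred ratio is the log2 ratio of the authors' SNL and naïve means minus its median over tested genes. Sequences are from RefSeq (GRCm38.p6), with 9386 tested genes matched by symbol.

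Named genes were the markers Atf3, Sprr1a, Gal, Apoe and Hbb-bs, the 10 most positive and 10 most negative called genes without overlap and with at least 5 FPKM, all injury list members, and the 4 highest members of each other list. Others were chosen after their values were seen. The members and lists were chosen with earlier results of these data known. Ahsp and Tubb3 of the lists were not matched. Some members that the rule names are not reported here.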

Additional observations from a re-analysis of the deposited data

Results flagged for a closer look

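In 42 quantities examined over the 6 SNL libraries (the leading genes and the summed gene lists), 4 had 1 library far from the others by Dixon's gap test, where chance gives about 1 in 20. Gm26917 was at 8246 FPKM in female SNL library 3, with the next library at 1360 FPKM. Fabp7 was at 7.08 FPKM in male SNL library 3, with the next at 0.796 FPKM. Mmd2 was at 0.395 FPKM in male SNL library 2 (next 0.120), and Acsbg1 at 0.0329 FPKM in female SNL library 1 (next 0.00928), both far below every naïve library.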

How the results depend on the processing

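Counts of higher and lower genes kept within 1.5 times of 325 and 722 under most alternatives. The number of higher genes moved to 166 with a mean FPKM of at least 5, 797 by percentile rank and 127 with a pseudocount of 5, and the number of lower genes to 454 with a mean FPKM of at least 5, 300 with a pseudocount of 5 and 414 in males only. A mean FPKM of at least 5 left 7446 genes to test. Of its calls, 165 of 166 higher and 451 of 454 lower genes were also called in the main fit. Leaving out each SNL library in turn gave 294 to 337 higher and 648 to 750 lower genes, and 0 to 6 genes in the interaction of sex and experiment, and the fit without an expression filter gave 1, Adm2. With the replicate number as a replicate block, 302 genes were higher and 734 lower, of which 243 and 579 were also called without it. The deviations of same-numbered libraries from their group means had correlations of -0.188 to 0.280 (26 pairs, 6 over 0.1). Different-numbered libraries were not compared, so whether the numbers pair samples was not tested. A further 3 alternatives were chosen after seeing the data, without the naïve libraries high in Sprr1a (358 and 730), without male naïve library 11 (316 and 684) and without female naïve library 4 (325 and 693). Of 2525 comparisons of 102 named genes called with all libraries, over 25 alternatives, 2358 kept the call and 167 lost it. Some of these genes were picked for large differences or after their values were seen, so this share does not stand for all called genes. Of 2085 comparisons of 84 named genes not called, 27 gained a call in the same direction and 1 in the other. That gene was Rn18s-rs5, not called at -0.86 with all libraries and at -1.39 to 1.23 when each SNL library was left out in turn, being called at 1.23 without female SNL library 3. The sign changed 62 times for genes called under neither setting. Depth limits genes near 1 FPKM most, and FPKM carries no counting error, so precision rests on the spread between libraries.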
